A study of Mus musculus with 8 samples.

Results

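The ID proteins and a core of the bone morphogenetic protein (BMP) pathway were followed across 4 treatments of JUN-expressing mouse embryonic stem cells (ESCs). The 9 genes are the ligand Bmp4, the receptor Bmpr1a, the transducers Smad1 and Smad5, the inhibitor Smad6 and the target genes Id1, Id2, Id3 and Id4, and they were picked by name from the 50600 gene names of the table. All 9 had a row, and 6 of them (Bmpr1a, Smad1, Smad5, Id1, Id2 and Id3) averaged 5 TPM or more across the 8 libraries and were tested among 10222 genes. The cells are JUN TetON ESCs of the OG2 background (an Oct4-GFP reporter) on a mixed 129SVJ, C57B6 and CBA strain, at passage P12, kept without feeders in medium with serum, LIF, PD0325901 and Chir99021. All 8 libraries came from cells given 2 μg/ml doxycycline, which switches JUN on, so the controls express the transgene too, and no library without doxycycline was analysed here. Beside it, cells were given solvent alone (DMSO), PFI-3 (an inhibitor of the bromodomain of BRG1), BI-9564 (an inhibitor of the bromodomains of BRD9 and BRD7) or both compounds (P+B), with 2 libraries per group. The labels give 6 h for every library and no compound dose, and the study's supplement describes JUN induction as longer than the compound exposure. It is not stated that replicates came from separate cultures, so p-values measure the spread between these libraries, which may be technical.

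BMPs are secreted proteins that bring together type I and type II receptors with serine/threonine kinase activity. The type I receptor phosphorylates the receptor SMADs, which join SMAD4, enter the nucleus and bind DNA at GC-rich elements and at short CAGAC boxes. The ID genes are textbook direct targets. ID proteins have a helix-loop-helix domain but no basic region for DNA contact, so they pair with E proteins and keep them from DNA, and in mouse ESCs BMP signalling through ID proteins is known to help LIF hold self-renewal. SMAD6 is an inhibitory SMAD, itself a BMP target, that damps the receptor SMADs.

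Values are length-normalized transcript levels (TPM) that the authors made whole numbers, so a step of 1 is large for genes of a few TPM, and counting error is unknown because TPM keeps no depth. Values per length allow levels of different genes to be set side by side. The libraries summed to between 991574 and 991897, and replicates of a treatment correlated with Pearson's r of 0.964 to 0.971 across the tested genes, which are not independent replicates. All 10 ESC markers passed the level filter, with summed levels, mostly Dppa5a and Pou5f1, of 3771 to 4970 TPM in DMSO and 3523 to 4488 TPM in P+B. Single markers moved in both directions. Esrrb went from 86 and 58 TPM in DMSO to 141 and 100 TPM in P+B, and Klf4 from 32 and 25 to 48 and 35 TPM. Tdgf1 went from 163 and 156 to 82 and 84 TPM, and Sox2 from 107 and 93 to 89 and 75 TPM. Among markers of other cells, 5 of 10 for fibroblasts (Col1a2, Postn, Dcn, Lum and Pdgfra) were at 0 in all libraries, as were Mesp1 and Tbx6 of the mesoderm list and Sox7, Foxa2 and Pdgfra of the primitive endoderm list. The summed trophoblast markers, mostly Krt8 and Krt18, were 210 to 281 TPM in DMSO and 69 to 97 TPM in P+B. Other members of that list went the other way, Cdx2 from 1 and 0 TPM to 5 and 10 TPM and Tfap2c from 8 and 5 TPM to 11 and 8 TPM. The fibroblast list, nearly all Vim and Fn1, was 846 to 873 TPM in DMSO and 596 to 649 TPM in P+B. The summed neural list was 76 to 88 TPM in DMSO and 108 to 130 TPM in P+B, mostly Tubb3, the primitive endoderm list went from 471 to 616 TPM in DMSO to 336 to 405 TPM in P+B, nearly all Sparc, and the mesoderm list was 4 to 8 and 10 to 12 TPM. Their part in the differences below was not tested, and in bulk RNA fewer cells of a type and less RNA per cell cannot be told apart.

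The members lie on 7 chromosomes of GRCm38 (mm10), with gene bounds from GENCODE M21. Id1 spans chr2:152736251-152737410 on the plus strand, Id2 chr12:25093799-25097140 on the minus strand, Id3 chr4:136143497-136145755 on the plus strand and Id4 chr13:48261228-48266026 on the plus strand. Smad1 spans chr8:79338395-79399518 on the minus strand, Smad5 chr13:56703010-56742377 on the plus strand and Smad6 chr9:63953076-64022059 on the minus strand. Bmpr1a spans chr14:34410734-34503341 and Bmp4 chr14:46383520-46390669, both on the minus strand. Id4, Bmp4 and Bmpr1a overlap genes on the other strand, and Smad5 overlaps short RNAs on its own strand. How the counting treated strand is not given in the sources used here. The overlaps were read from whole gene bounds and not from exons, so whether reads of these genes mix was not tested.

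The short sequences below are the matches to SMAD elements in the 250 bases before each RefSeq start (GRCm38.p6), printed because SMAD proteins, the pathway's transducers, bind such letters. RefSeq promoters were matched for 8 of the 9 members (all but Id1), and both strands were searched. The GC element GGCGCC, which reads the same on both strands, was present for 4 members (Id2, Id4, Bmpr1a and Smad5) and in 9.59% of 32851 promoter windows. The box CAGAC, which reads GTCTG on the other strand, was present for Id3 and Smad5 and in 42.2% of windows. The motif TGANTCA, bound by AP-1, the dimer that JUN forms, was in 6.75% of windows and in none of the matched members, and the E-box CANNTG, bound by E protein dimers, was in 66.2% and in Id2, Smad5 and Bmp4. Capitals mark the match, with 10 bases on either side, and no printed match overlaps one of another motif.
Id2, GC element 231 bases before the start, chr12:25096308-25096333, minus strand: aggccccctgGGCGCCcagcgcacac
Id4, GC element 148 bases before the start, chr13:48260958-48260983, plus strand: cgggttgcccGGCGCCccgccctcgc
Smad5, GC element 19 bases before the start, chr13:56703023-56703048, plus strand: ccggcgagcgGGCGCCgagcgcttgt
Bmpr1a, GC element 198 bases before the start, chr14:34502729-34502754, minus strand: cgcgcgcgccGGCGCCtcttgctcgc
Id3, SMAD box 167 bases before the start, chr4:136143645-136143669, plus strand: tcctcggcgtCAGACcagcctaagg
Id3, SMAD box 68 bases before the start, chr4:136143744-136143768, plus strand: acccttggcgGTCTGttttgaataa
Smad5, SMAD box 21 bases before another RefSeq start, chr13:56703637-56703661, plus strand: tgcccaagttCAGACtccatcccct
A match is a description of these letters and not of binding. All but the Id4 match lie inside the GENCODE bounds of their gene, because GENCODE places the outermost start farther upstream.

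The level of the 9 genes spanned a wide range in DMSO, with Id1 at the top (130 ± 12.7 TPM, SD, n = 2). Bmpr1a followed at 33.5 ± 0.71 TPM, then Smad1 at 27.5 ± 2.12, Id2 at 22.5 ± 10.6, Id3 at 22 ± 2.83 and Smad5 at 17 ± 1.41 TPM. Bmp4 (5 ± 1.41 TPM), Smad6 (3 TPM in both libraries) and Id4 (2.5 ± 0.71 TPM) stood at the bottom. Smad1 and Id2, Id2 and Id3, and Smad6 and Id4 overlapped in their values. In P+B Id3, at 63.5 ± 10.6 TPM, stood second after Id1 (191.5 ± 23.3 TPM) and above Bmpr1a (39.5 ± 6.36 TPM) without overlap. With BI-9564 alone Id3 was second as well (37 ± 5.66 TPM), above Bmpr1a (30.5 ± 0.71 TPM) and overlapping Smad1 (35.5 ± 3.54 TPM).

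**Figure D1:**
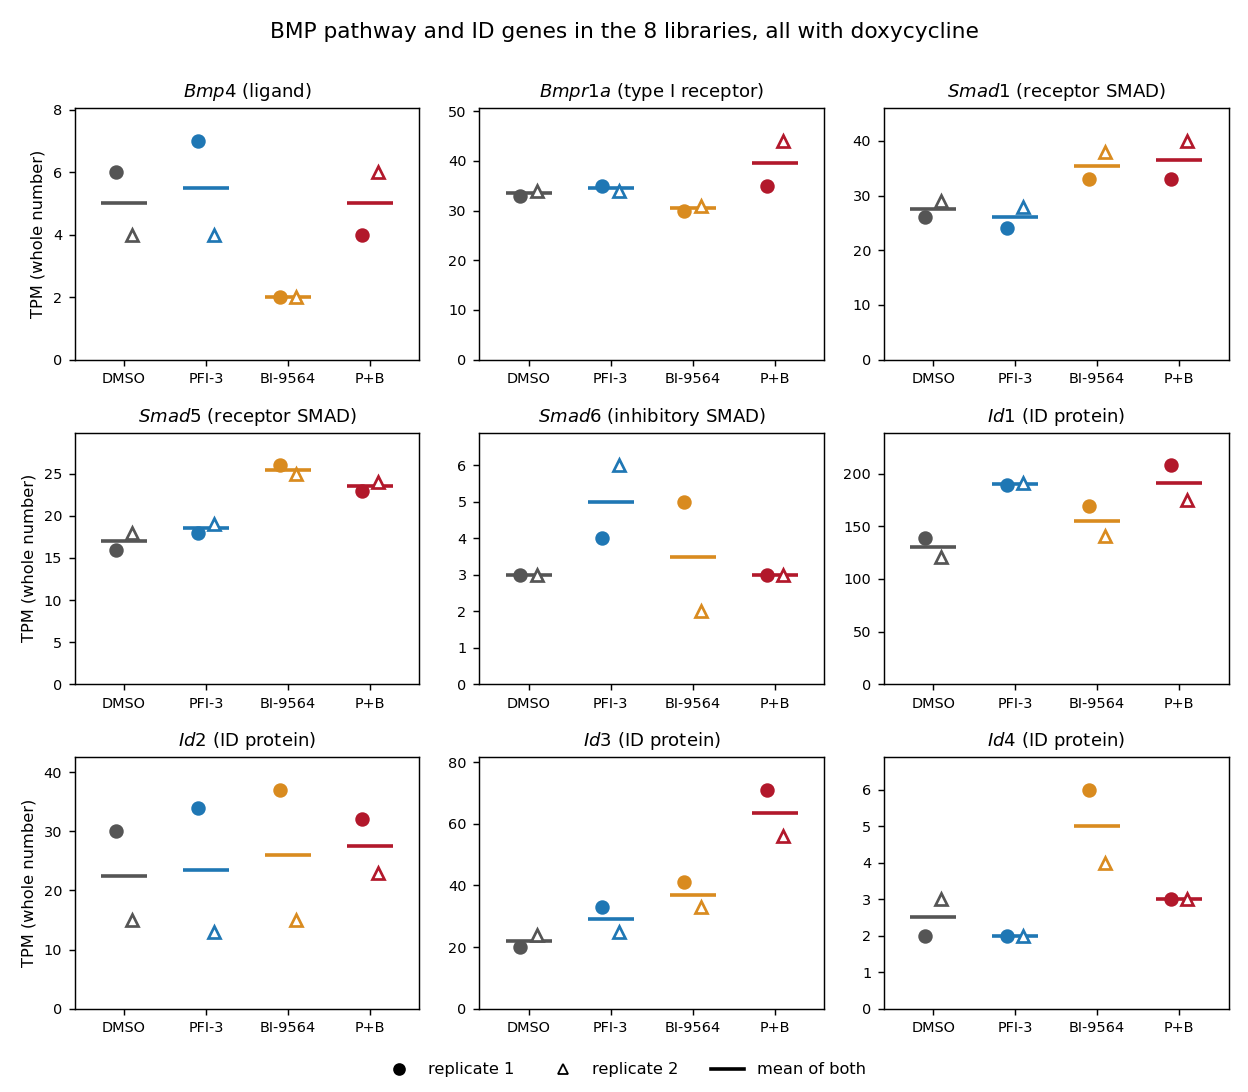
Level of each of the 9 genes (vertical axis, TPM as whole numbers, from 0, with a scale of its own per panel) in the 4 treatments (horizontal axis). Circles are replicate 1, triangles replicate 2 and bars their mean. Id3 is highest in both P+B libraries (71 and 56), Id1 is lowest in DMSO replicate 2 (121), and Id2 is lower in replicate 2 than in replicate 1 in all 4 treatments.

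Bmp4, the ligand, was low in every library. It was 6 and 4 TPM in the DMSO libraries (replicates 1 and 2), 7 and 4 in those with PFI-3 alone, 2 and 2 in those with BI-9564 alone and 4 and 6 in those with both. Both BI-9564 libraries were below both DMSO libraries, while P+B spanned the same values as DMSO. Bmp4 fell short of the level filter and was given only in a fit of genes with a mean of at least 1, where BI-9564 differed from DMSO by −0.98 on the log2(TPM + 1) scale (SE 0.36, limma adjusted p = 0.317) and P+B did not pass either (adjusted p = 1). Of the other BMP ligands all 11 listed had a mean under 5 and were not tested, and Bmp2, Bmp5, Bmp10, Gdf2, Gdf5 and Gdf6 were listed at 0 in all 8 libraries.

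Bmpr1a, a type I receptor that binds BMP4, was among the steadiest members. It was 33 and 34 TPM in the DMSO libraries, 35 and 34 in those with PFI-3 alone, 30 and 31 in those with BI-9564 alone and 35 and 44 in those with both. Both BI-9564 libraries were below all others, and the P+B group was above DMSO mainly through replicate 2. No comparison of Bmpr1a passed the test. Its log2 difference from DMSO was 0.22 with P+B (SE 0.14, 95% interval −0.10 to 0.54, limma adjusted p = 0.388) and −0.13 with BI-9564 (SE 0.14, adjusted p = 0.707), and P+B against BI-9564 gave 0.35 (SE 0.14, adjusted p = 0.571).

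Smad1 and Smad5, the receptor SMADs that BMP receptors phosphorylate, were higher in the libraries with BI-9564. Smad1 was 26 and 29 TPM in the DMSO libraries, 24 and 28 in those with PFI-3 alone, 33 and 38 in those with BI-9564 alone and 33 and 40 in those with both. Smad5 was 16 and 18 TPM in the DMSO libraries, 18 and 19 in those with PFI-3 alone, 26 and 25 in those with BI-9564 alone and 23 and 24 in those with both. For both genes all 4 libraries with BI-9564, alone or in P+B, were above all 4 libraries without it. Against DMSO no single comparison passed. Smad5 differed by 0.56 with BI-9564 (SE 0.14, 95% interval 0.23 to 0.89, limma adjusted p = 0.160) and by 0.45 with P+B (SE 0.14, adjusted p = 0.117). Smad1 differed by 0.36 with BI-9564 (SE 0.16, adjusted p = 0.340) and by 0.39 with P+B (SE 0.16, adjusted p = 0.191). With PFI-3 the differences were −0.08 for Smad1 (adjusted p = 0.973) and 0.12 for Smad5 (adjusted p = 0.951), and P+B against BI-9564 was 0.04 for Smad1 (95% interval −0.32 to 0.40) and −0.11 for Smad5 (95% interval −0.44 to 0.22).

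Smad6, the inhibitory SMAD, was 3 and 3 TPM in the DMSO libraries, 4 and 6 in those with PFI-3 alone, 5 and 2 in those with BI-9564 alone and 3 and 3 in those with both. The replicates of a group differed by as much as the groups. In the fit of genes with a mean of at least 1, its largest difference from DMSO was 0.56 with PFI-3 (SE 0.40, limma adjusted p = 0.881).

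Id3 had the largest difference of the 6 tested members in P+B against DMSO. It was 20 and 24 TPM in the DMSO libraries, 33 and 25 in those with PFI-3 alone, 41 and 33 in those with BI-9564 alone and 71 and 56 in those with both. Both P+B libraries were above the other 6, and within each replicate number the order was DMSO, PFI-3, BI-9564, P+B. Against the DMSO library of the same number, the ratio was 1.65 and 1.04 for PFI-3, 2.05 and 1.38 for BI-9564, then 3.55 and 2.33 for P+B. Id3 rose with P+B against DMSO by 1.48 on the log2(TPM + 1) scale (SE 0.20, 2.80-fold, limma adjusted p = 0.00603), and against PFI-3 by 1.11 (SE 0.20, 2.15-fold, adjusted p = 0.0384). Against BI-9564 the difference of P+B was 0.76 (SE 0.20, 95% interval 0.31 to 1.21, adjusted p = 0.322), and BI-9564 alone differed from DMSO by 0.72 (SE 0.20, adjusted p = 0.173), so neither passed. PFI-3 alone differed by 0.38 (SE 0.20, adjusted p = 0.788). Without DMSO replicate 1 or P+B replicate 1 the adjusted p of P+B against DMSO was 0.0699 and 0.0642, at differences of 1.36 and 1.31, and with only the 4 libraries compared it was 0.101, so this call does not hold without either library. The call against PFI-3 was lost when any 1 of the 8 libraries was left out (adjusted p from 0.0721 to 0.233, differences from 0.91 to 1.3).

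Id1 was the most abundant member in every library. It was 139 and 121 TPM in the DMSO libraries, 189 and 191 in those with PFI-3 alone, 169 and 141 in those with BI-9564 alone and 208 and 175 in those with both. The 4 libraries with PFI-3, alone or in P+B, were above the 4 without it. Against DMSO, Id1 differed by 0.55 with P+B (SE 0.13, limma adjusted p = 0.0462), which was past the p threshold, but its 1.47-fold was under the 1.5-fold required for a call. PFI-3 alone gave the same size, 0.55 (SE 0.13, adjusted p = 0.506), and P+B against PFI-3 was 0.01 (95% interval −0.28 to 0.29, adjusted p = 0.995). BI-9564 alone gave 0.25 (SE 0.13, adjusted p = 0.396), and BI-9564 against PFI-3 gave −0.30 (SE 0.13, adjusted p = 0.346). For P+B against DMSO, the limma adjusted p of Id1 was over 0.05 when any 1 of the 8 libraries was left out (from 0.0622 to 0.207). It was also over 0.05 with a filter at a mean of at least 1, with no filter, with median centring, with no trend and with only the libraries compared. It was 0.00743 with the replicate block, and with quantile normalization the difference was 0.63 (adjusted p = 0.0306) and past both thresholds.

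Id2 differed between replicate numbers and not measurably between treatments. It was 30 and 15 TPM in the DMSO libraries, 34 and 13 in those with PFI-3 alone, 37 and 15 in those with BI-9564 alone and 32 and 23 in those with both. Replicate 1 was above replicate 2 in all 4 groups, by more than any treatment mean differed from another. The log2 difference of P+B from DMSO was 0.34 with an SE of 0.53 (95% interval −0.89 to 1.56, limma adjusted p = 0.752). With the replicate number as a block in the fit the SE was 0.21 (95% interval −0.16 to 0.84, adjusted p = 0.337).

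Id4 was near the floor of the table, at 2 and 3 TPM in the DMSO libraries, 2 and 2 in those with PFI-3 alone, 6 and 4 in those with BI-9564 alone and 3 and 3 in those with both. Both BI-9564 libraries were above the other 6 by 1 to 4 TPM. In the fit of genes with a mean of at least 1 its difference from DMSO was 0.77 with BI-9564 (SE 0.33, limma adjusted p = 0.366) and 0.21 with P+B (adjusted p = 0.769).

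**Figure D2:**
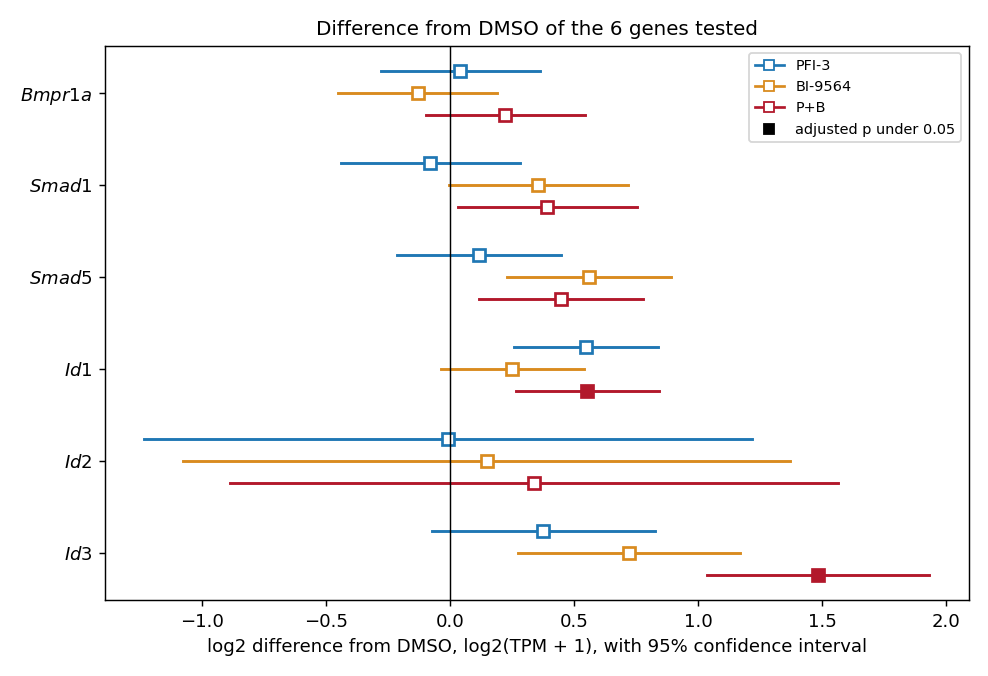
Difference from DMSO on the log2(TPM + 1) scale (horizontal axis) of the 6 genes tested (vertical axis), with the 95% confidence interval of the limma fit as a line. Colours are the treatments, and filled squares have an adjusted p under 0.05. Id3 with P+B lies farthest to the right (1.48), Id1 is near 0.55 with PFI-3 and with P+B, and the intervals of Id2 are the widest.

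Counted over the members, 1 of the 6 tested (Id3) was called in P+B against DMSO, where 4.0% of all tested genes were called and 1.28% were called higher. The limma unadjusted p was under 0.05 for 4 of the 6 and for 2306 of all 10222 genes. Both P+B libraries were above both DMSO libraries for 5 of the 9 (Id1, Id3, Bmpr1a, Smad1 and Smad5), against 28.6% of tested genes, and an exact permutation test of 2 against 2 cannot go below p = 0.333. No member was called with PFI-3 (0% of all genes, none of 10222, with 694 genes and 1 member, Id1, at an unadjusted p under 0.05) or with BI-9564 (0.108% of all genes), where Id3, Smad5 and 1523 of all 10222 genes had an unadjusted p under 0.05. Against PFI-3, P+B called 1 member (Id3) and 1.31% of genes, while P+B against BI-9564 called no member and 0.196% of genes, and BI-9564 against PFI-3 called no member and 0.108% of genes. The 3 comparisons with DMSO share its libraries, and the 2 comparisons of P+B with single compounds share P+B, so they are not independent of each other.

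The interaction asked whether the P+B difference exceeded or missed the added differences of PFI-3 and BI-9564, in log2 units. It was 0.39 for Id3 (SE 0.28, 95% interval −0.25 to 1.02), −0.24 for Id1 (SE 0.18, 95% interval −0.65 to 0.16), −0.23 for Smad5 (SE 0.20), 0.12 for Smad1 (SE 0.22), 0.31 for Bmpr1a (SE 0.20) and 0.20 for Id2 (SE 0.76). All 6 had a limma adjusted p of 1 and none had an unadjusted p under 0.05. Of all genes 0% passed, with 333 at an unadjusted p under 0.05. At this precision neither an excess of the Id3 response over the sum nor a shortfall of it was detected.

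The values of Id1, Smad1 and Smad5 led to comparisons of all 4 libraries with a compound against the 4 without it, which were chosen after these values were seen, so their p-values describe the pattern and do not test it afresh. For PFI-3, Id1 was 175 to 208 TPM with it and 121 to 169 TPM without, and its difference was 0.43 (SE 0.09, 1.34-fold, limma adjusted p = 0.122, or 0.0150 with the replicate block). Id1 was the only 1 of the 9 whose groups of 4 did not overlap for PFI-3, while 1.94% of tested genes were higher without overlap, and an exact two-sided permutation test gave p = 0.0286, the smallest it can give. No member was called there, and 0.323% of genes were. Jun, the induced gene, was 1569 to 2227 TPM with PFI-3 and 1970 to 3011 TPM without (−0.39, SE 0.18, adjusted p = 0.486, or SE 0.03 and adjusted p = 0.00344 with the replicate block). Jun was lower with PFI-3 within each replicate number, at 0.797 and 0.774 of the DMSO level with PFI-3 alone and 0.796 and 0.750 of it with P+B, and its part in the Id1 values was not tested.

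For BI-9564, Smad1 was 33 to 40 TPM with it and 24 to 29 TPM without, and Smad5 was 23 to 26 and 16 to 19 TPM. Neither overlapped, while 7.78% of tested genes were higher without overlap (exact permutation p = 0.0286 for each, again the smallest possible). Id3 was 33 to 71 TPM with BI-9564 and 20 to 33 TPM without, so the groups met at 33 TPM. In the fit Id3 rose by 0.91 (SE 0.14, 1.89-fold, limma adjusted p = 0.0112), which made it 1 of the 3.19% of genes called. Smad5 had an adjusted p of 0.0399 at 1.36-fold and Smad1 an adjusted p of 0.0630 at 1.33-fold (0.0151 with the replicate block), both under the fold threshold. The adjusted p of Smad5 was over 0.05 without any 1 of the 8 libraries (from 0.0721 to 0.120), with a filter at a mean of at least 1, with no filter, and with quantile normalization or median centring. The Id3 call was lost without DMSO replicate 1, PFI-3 replicate 2, BI-9564 replicate 1 or P+B replicate 1 (adjusted p from 0.0539 to 0.0559, differences from 0.82 to 0.85). Jun was 1569 to 3011 TPM with BI-9564 and 1570 to 2877 TPM without it.

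Replicate 2 was also compared with replicate 1 across all treatments, again after the values were seen, with the number as a term beside the treatment. Id2 was 13 to 23 TPM in replicate 2 and 30 to 37 TPM in replicate 1. The groups of 4 did not overlap, as for 3.04% of tested genes in that direction. Id2 was lower in replicate 2, with a difference of −1.0 (SE 0.15, 1.99-fold, limma adjusted p = 0.0160), the only member among the 1.32% of genes called. Leaving out any 1 of the 6 libraries of DMSO, PFI-3 or BI-9564 ended this call (adjusted p from 0.0979 to 0.118), as did fitting without the trend (0.0734) or without a level filter (0.102). Jun was 2159 to 3011 TPM in replicate 2 and 1569 to 2071 TPM in replicate 1, without overlap, and what the numbers mark is not stated. Id1 (−0.17, adjusted p = 0.162), Smad1 (0.21, adjusted p = 0.20) and Id3 (−0.19, adjusted p = 0.425) did not pass.

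**Figure D3:**
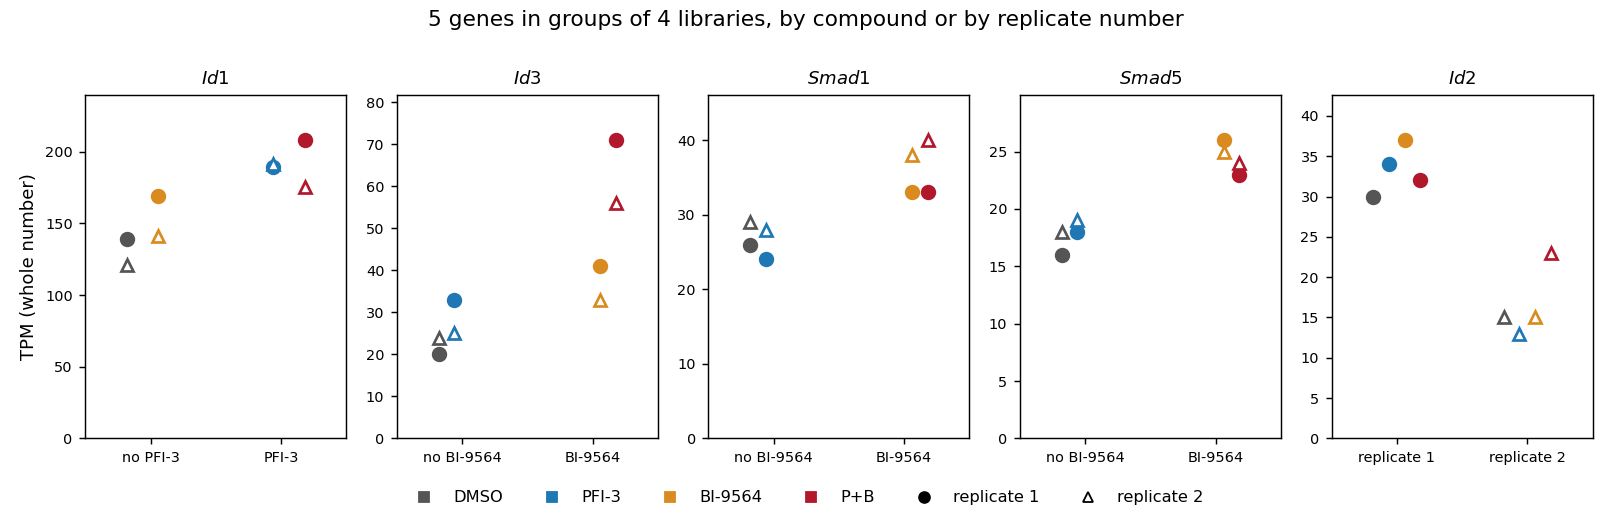
Level (vertical axis, TPM as whole numbers, from 0) of 5 genes in 2 sets of 4 libraries (horizontal axis), split by PFI-3 for Id1, by BI-9564 for Id3, Smad1 and Smad5, and by replicate number for Id2. Colours are the treatments, circles replicate 1 and triangles replicate 2. The sets are separate for Id1, Smad1, Smad5 and Id2, and meet at 33 TPM for Id3.

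The rest of the pathway was read from lists of 76 genes, of which 33 passed the level filter. In P+B against DMSO 1 of the 33, Smurf2, was called, and 23 lay above 0 with a median of 0.21, while the median of all tested genes was 0.06. The share of all tested genes above 0 was not counted, and the lists were chosen with earlier results of these data known. The counts above 0 here and by list below are therefore descriptions, and a shift of the pathway as a set was not tested. Smurf2, a ubiquitin ligase that targets receptor SMADs and receptors for degradation, was 18 and 18 TPM in the DMSO libraries, 21 and 19 in those with PFI-3 alone, 30 and 28 in those with BI-9564 alone and 28 and 35 in those with both. Its 4 libraries with BI-9564 were thus above the 4 without, as for Smad1 and Smad5 and for 7.78% of all tested genes. Among the listed genes the same held for Smad4, Ski, Twsg1, Eng, Rgmb, Hes6 and Ascl2. Smurf2 rose by 0.77 with P+B (SE 0.16, 1.70-fold, limma adjusted p = 0.0335). Over all libraries with BI-9564 it rose by 0.64 (limma adjusted p = 0.0170) and was the only listed gene called without the replicate block. Leaving out any 1 library ended the P+B call (adjusted p from 0.0615 to 0.172), and leaving out any 1 but P+B replicate 1 ended the call over all libraries with BI-9564 (adjusted p up to 0.0721), as did a pseudocount of 5 through the fold. The P+B call of Smurf2 was also lost with no filter (limma adjusted p = 0.0675), quantile normalization (0.05002) and only the libraries compared (0.160). With the replicate block Ascl2, Eng and Zfp423 were also called over all libraries with BI-9564. With PFI-3 alone or BI-9564 alone against DMSO no listed gene was called, and the medians of the 33 were −0.05 and 0.12.

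Among receptors and co-receptors 6 of 9 were tested, none was called with P+B, and 5 lay above 0. Eng, a co-receptor for BMP9 and TGF-beta family ligands, was 48 and 26 TPM in the DMSO libraries, 32 and 27 in those with PFI-3 alone, 49 and 51 in those with BI-9564 alone and 49 and 51 in those with both. DMSO replicate 1 was thus near the BI-9564 libraries and replicate 2 was not, and the P+B difference was 0.49 (SE 0.25, limma adjusted p = 0.287). Over all libraries with BI-9564 Eng differed by 0.62 (adjusted p = 0.0717, or 0.0362 and called with the replicate block). Acvr2b, a type II receptor, was 14 and 14 TPM in DMSO and 18 and 18 with P+B (0.34, SE 0.17, adjusted p = 0.290). Acvr1, another type I receptor, was 12 and 8 TPM in DMSO and 9 and 8 with P+B (−0.19, SE 0.26, adjusted p = 0.714).

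Of 14 secreted inhibitors and modulators 2 were tested and none was called with P+B without the block, and Nog, Grem1 and Cer1 were listed at 0 in all libraries. Twsg1, which binds BMPs outside the cell, was 20 and 24 TPM in DMSO and 32 and 37 with P+B (0.63, SE 0.17, limma adjusted p = 0.0772, or 0.0224 with the replicate block). Fstl1, a follistatin-like secreted protein, was 41 and 81 TPM in DMSO and 22 and 59 with P+B, lower in P+B within each number (−0.66, adjusted p = 0.542, or 0.0182 with the block). It was higher in replicate 2 in every treatment, and that difference was called (1.12, SE 0.09, adjusted p = 0.00147).

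Of 18 SMADs and intracellular regulators 15 were tested, and 12 lay above 0 with P+B. Fkbp1a, which binds type I receptors and holds them inactive, was 331 and 334 TPM in DMSO and 308 and 311 with P+B (−0.10, SE 0.07, limma adjusted p = 0.422). Ppm1a, a SMAD phosphatase, and Ctdsp1, a small C-terminal domain phosphatase that also acts on SMADs, differed by 0.14 (adjusted p = 0.585) and −0.27 (adjusted p = 0.318). Smad4 and Smad7, the common and the other inhibitory SMAD, were named after their values were seen. Smad4 was 50 and 48 TPM in DMSO and 69 and 59 with P+B (0.37, SE 0.13, adjusted p = 0.147), and Smad7 was 38 and 20 TPM in DMSO and 32 and 24 with P+B (0.01, SE 0.30, adjusted p = 1).

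Of 10 other BMP target genes 4 were tested, none was called with P+B without the block, and 1 of them lay above 0 (median −0.10). Zfp423, a zinc finger cofactor of BMP SMADs, was 7 and 17 TPM in DMSO and 2 and 6 with P+B, lower within each number (−1.39, SE 0.58, limma adjusted p = 0.203, or 0.0188 with the block), and its difference of replicate 2 from replicate 1 was 1.03 (adjusted p = 0.0317, but 0.101 to 0.149 without any 1 library). Dusp9, an ERK phosphatase that BMP4 raises in mouse ESCs, was 47 and 65 TPM in DMSO and 35 and 68 with P+B (−0.18, SE 0.36, adjusted p = 0.813) and likewise differed between the numbers by 0.68 (adjusted p = 0.0119, but 0.0510 to 0.104 without any 1 library). Kdm6b, an H3K27 demethylase, was 25 and 28 TPM in DMSO and 24 and 28 with P+B (−0.03, SE 0.15, adjusted p = 0.934).

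The E proteins, the partners that ID proteins bind, were all tested and none was called. Tcf3 was 127 and 139 TPM in DMSO and 126 and 125 with P+B (−0.08, SE 0.09, limma adjusted p = 0.649). Tcf12 was 34 and 31 TPM in DMSO and 41 and 40 with P+B (0.31, SE 0.17, adjusted p = 0.318), and Tcf4 was 14 and 13 and then 16 and 21 TPM (0.42, SE 0.19, adjusted p = 0.232). In TPM, Id1 in P+B (208 and 175) stood above Tcf3, the most abundant E protein, and in DMSO (139 and 121) beside it. Of 11 other genes of basic helix-loop-helix proteins 3 were tested. Hes1, a Notch target, was 26 and 17 TPM in DMSO and 24 and 18 with P+B (−0.02, adjusted p = 0.988), Hes6 was 12 and 14 and then 19 and 16 TPM (0.40, adjusted p = 0.292), and Ascl2, which pairs with E proteins, was 5 and 4 and then 10 and 7 TPM (0.78, adjusted p = 0.212). Over all libraries with BI-9564 Ascl2 differed by 0.78 (adjusted p = 0.0840, or 0.0459 and called with the replicate block).

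**Figure D4:**
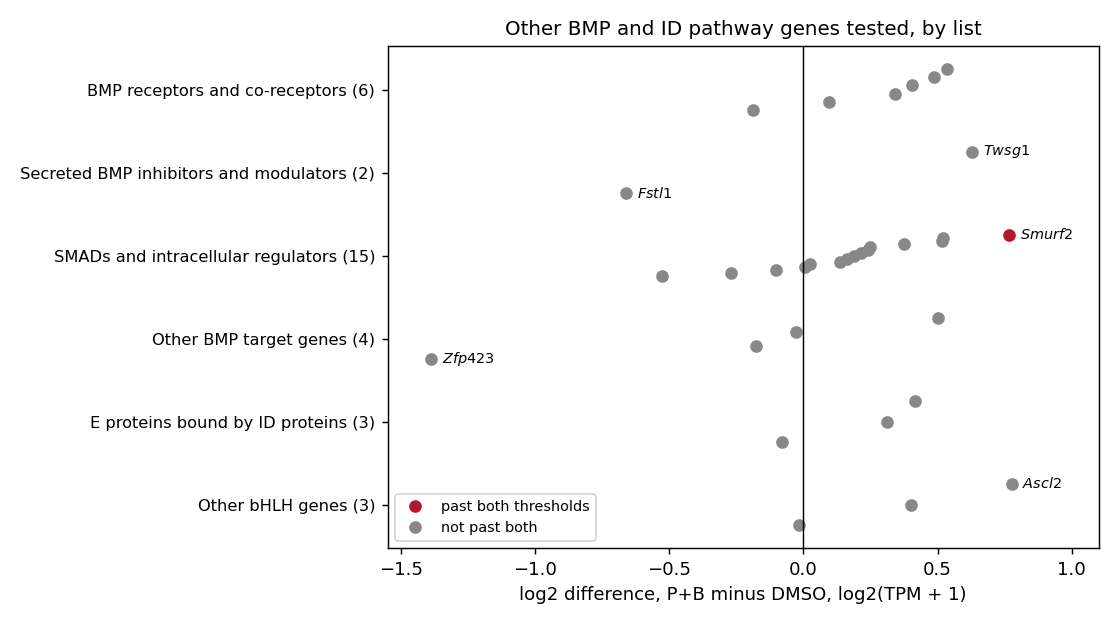
Log2 difference of P+B minus DMSO on the log2(TPM + 1) scale (horizontal axis) of the 33 tested genes of the pathway lists other than the 9 followed here, by list (vertical axis, number tested in parentheses). The red point, Smurf2 (0.77), is past both thresholds, and the grey points are not, Zfp423 (−1.39) being the farthest to the left.

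The genes whose levels ran most like Id3 over the 8 libraries were looked up among 6511 tested genes with a mean of at least 20. They were Slc38a10, an amino acid transporter family member, with Pearson's r of 0.98, Ftl1, ferritin light chain, with 0.98, and Gm42546 with 0.98. Slc38a10 ran from 51 TPM in DMSO replicate 1 to 70 TPM in P+B replicate 1 and Gm42546 from 13 to 34 TPM in the same libraries, and all 3 were highest in the P+B libraries, as Id3 was. These r are descriptions over libraries that share treatments and were picked as the highest of many.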

How the data were processed

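RNA-seq of 8 libraries was used. The authors deposited 1 table of 50600 gene names whose values are a score per gene and library, TPM made whole numbers. Per the labels, the processing named bcl2fastq, Bowtie2 2.2.5, RSEM 1.3.0 and mm10, and per the methods a VAHTS mRNA-seq kit, NextSeq500 sequencing and DESeq2. TPM keeps no counts, so DESeq2 was not run here and depth is unknown. The table has 94 repeated names, none of a member, and 33075 rows at 0 in all libraries.

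Values were analysed as log2(value + 1), a scale that understates changes of low genes, with limma 3.58.1 in R 4.3.3 (lmFit, eBayes with trend, two-sided). All 4 groups were fitted together for genes averaging 5 TPM or more, with 4 residual degrees of freedom before moderation and Benjamini-Hochberg adjustment over 10222 genes. A call needs an adjusted p under 0.05 and a fold of at least 1.5. The fit was also run on simulated libraries with independent noise. These held no difference between replicate numbers, so that run does not cover such a difference.

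The members and gene lists were chosen with earlier results of these data known. Named are all members, listed genes called in a comparison, the 3 most abundant tested genes per list, the 3 genes most correlated with a called member (Id3), and Jun.

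Groups share replicate numbers, and the labels do not say what they mark. The replicate 2 minus replicate 1 differences correlated across genes in all 6 pairs of groups (r of 0.143 up to 0.236). The main fit does not pair the libraries by number. A replicate block was therefore fitted beside the main results as an alternative (3 residual degrees of freedom). Alternatives were this block, pseudocounts, filters, normalizations, no trend, only the libraries compared, and each library left out.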

Additional observations from a re-analysis of the deposited data

How the results depend on the processing

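Each of the 65 single-gene results was recomputed under the alternatives that can be had, 1068 values in all. Of these, 959 kept their direction and stayed called or not called, 65 lost the call, 1 gained it and 43 changed direction. Only results called in the main fit could lose a call, so the 65 are not a share of all 1068. Id3 lost it in 3 of 17 alternatives for P+B against DMSO, 12 of 17 against PFI-3 and 4 of 16 for libraries with BI-9564. Smurf2 lost it in 11 of 17 for P+B against DMSO and 8 of 16 for libraries with BI-9564. Between replicate numbers Id2 lost it in 8, Dusp9 in 10, Zfp423 in 9 and Fstl1 in 0 of 15. The count of members called in P+B against DMSO was 1, it was 2 (Id3 and Id1) with quantile normalization and 0 with only the libraries compared, and it ranged from 0 to 1 without each library in turn. The count for P+B against PFI-3, also 1 (Id3), was 0 with a filter at a mean of at least 1, with no filter, with no trend and with only the libraries compared, and 0 without each library. The limma adjusted p of Id3 there was 0.0703, 0.127, 0.0762 and 0.246. Calls over all genes fell in those settings too. They went from 134 of 10222 to 77 of 13101, 6 of 17525, 4 of 10222 and 0 of 10260. In P+B against DMSO 409 of 10222 genes were called in the main fit. That count was 386 of 10222 with quantile normalization and 0 of 10235 with only the libraries compared. Without each library the count ranged from 0 to 1 for libraries with BI-9564 against those without and for replicate 2 against replicate 1, and the latter was also 0 with no filter and with no trend. Over all genes, replicate 2 against replicate 1 called 135 of 10222 in the main fit, 41 of 17525 with no filter and 65 of 10222 with no trend. In each of these comparisons fewer genes of the whole table were called without each library as well. The cause of these changes was not tested. Some alternatives hold fewer libraries or another set of genes, while no trend and quantile normalization keep all 8 libraries and the same 10222 genes. The counts of the other comparisons stayed at 0 in every alternative run.

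With the replicate block the count of members called was the same in all 9 treatment comparisons that have it. In P+B against DMSO the limma adjusted p with the block was 0.00243 for Id3, 0.00743 for Id1, 0.0627 for Smad1 and 0.0759 for Smad5. Over all genes the block moved the calls from 409 to 718 in P+B against DMSO, from 11 to 156 with BI-9564, from 134 to 351 against PFI-3, from 20 to 82 against BI-9564, from 11 to 151 in BI-9564 against PFI-3, from 33 to 107 for libraries with PFI-3 and from 326 to 506 for libraries with BI-9564.

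Directions changed only for differences that passed no test. Without each library in turn the difference of Id2 ranged from −0.14 to 0.81 (P+B against DMSO), −0.67 to 0.65 (PFI-3 against DMSO), −0.48 to 0.77 (BI-9564 against DMSO), −0.31 to 1.01 (P+B against PFI-3), −0.43 to 0.81 (P+B against BI-9564), −0.51 to 0.82 (BI-9564 against PFI-3), −0.46 to 0.86 (interaction), −0.24 to 0.42 (libraries with PFI-3) and −0.0839 to 0.58 (libraries with BI-9564). That of Smad1 ranged from −0.19 to 0.0271 (PFI-3 against DMSO), −0.10 to 0.17 (P+B against BI-9564), −0.0190 to 0.25 (interaction) and −0.0895 to 0.0456 (libraries with PFI-3). That of Smad5 ranged from −0.0381 to 0.0421 (libraries with PFI-3), Id1 from −0.12 to 0.13 (P+B against PFI-3) and Bmpr1a from −0.0555 to 0.11 (libraries with BI-9564). Median centring gave −0.00607 for Bmpr1a (PFI-3 against DMSO), −0.0398 for Id1 (P+B against PFI-3), −0.00973 for Smad1 (P+B against BI-9564), −0.0215 for Bmpr1a (libraries with BI-9564) and −0.0446 for Smad5 (libraries with PFI-3). For that Smad5 difference quantile normalization gave −0.0301 and a pseudocount of 5 gave −0.000776, and a pseudocount of 5 gave 0.00206 for Id2 (PFI-3 against DMSO).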
